A study of Homo sapiens with 17 samples.

Results

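The 50 genes described here are 21 genes of DNA replication, 24 genes of mitosis, and 5 CDK inhibitors and D-type cyclins, out of 57820 genes quantified by poly-A RNA sequencing in 2 squamous cancer cell lines. They were picked by symbol for their known roles, by a rule that uses no measured value but was written with earlier results of these data known. The 17 libraries comprise 13 of KYSE140, an esophageal squamous cancer cell line, and 4 of SKMES1, a lung squamous cancer cell line. The study asked which noncoding enhancer near SOX2 drives its expression, and the RNA libraries compare the genes that respond to 1 such enhancer, e1, with those that respond to SOX2 itself, a lineage transcription factor of squamous epithelium.

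The e1 repression group was KYSE140 with a dCas9 repressor fusion that includes the KRAB domain and a guide to e1 (sg-e1#1 and sg-e1#2), against negative-control guides (sg-NC#1 and sg-NC#2). SOX2 knockout was KYSE140 with Cas9 and 1 of 3 guides to the coding sequence (sg-SOX2#2, sg-SOX2#3 and sg-SOX2#4), against a guide to AAVS1 and a guide to a control site (sg-Chr2.2). ARV-771, a molecule that recruits an E3 ligase to degrade BET bromodomain proteins, was given to KYSE140 at 0.5 uM for 6 h in cultures A and B, against DMSO for 6 h. The e1 activation group was SKMES1 with dCas9 and the activators VP64, p65 and HSF1 and a guide to e1 (sg-e1#1 and sg-e1#3), against sg-NC#1 and sg-NC#2. All guides and Cas9 proteins were delivered by lentivirus with drug selection, so each guide library is a pool of infected cells and each replicate of a guide group is a different guide. For the guides and the drug alike, p-values measure only the spread between these libraries.

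Proliferating cells copy their DNA in S phase and divide in mitosis, and the RNA of the genes needed for each step rises and falls with the cell cycle. Replication genes are transcribed from late G1 by E2F factors, which are held back by RB-family proteins until cyclin D and cyclin E kinases act. Mitosis genes peak later and are transcribed through FOXM1 and the MuvB complex, which binds the CHR element of their promoters, and CDK inhibitors such as CDKN1A slow both steps.

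Libraries held between 7260730 and 15781463 counts, and the 50 genes together took 0.457% to 0.95% of them. Levels below are TPM (each gene's share of the transcripts of a library, corrected for gene length and set to a fixed total), and log2 fold changes come from edgeR after TMM scaling (trimmed mean of M values) of the expected counts. Calls needed more than a 1.5-fold change and, after Benjamini-Hochberg adjustment over all genes tested, a p under 0.05, and "rose" or "fell" is used only for called genes. For 16 of the 50 genes the expected count was not whole in at least 1 library, so some of their reads were divided between genes, for a reason that was not tested; UHRF1 was so in all 17, CDC20 in 16 and BIRC5 in 14. KYSE140 expressed all 8 squamous markers examined. In SKMES1, KRT5 at 0.05 to 1.26 TPM and DSG3 at 0.00 to 0.10 TPM were at or near 0, and TP63, KRT6A, KRT17 and CDH1 were also below every KYSE140 library. The other markers, PKP1 at 71.98 to 140.63 TPM and KRT14 at 0.00 to 118.44 TPM, overlapped with KYSE140, so the markers of the squamous label were present only in part. The SKMES1 control with sg-NC#2 stood apart with KRT17 at 977 TPM, against 2.73 TPM with sg-NC#1. SOX2 itself was at 365 and 379 TPM under CRISPRi control guides and 120 and 128 TPM with e1 guides, at 397 and 428 TPM under knockout control guides and 103, 125 and 221 TPM with guides 2, 3 and 4, at 223 and 236 TPM in DMSO and 9.80 and 10.5 TPM with ARV-771, and at 1.53 and 1.68 TPM in the CRISPRa controls and 224 and 316 TPM with e1 guides. RNA of an edited gene is still counted, so the level in the knockout does not measure loss of the protein.

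In KYSE140 control libraries the replication genes spanned from POLA1, the catalytic subunit of the priming polymerase, at 7.68 to 12.0 TPM, to MCM7, a subunit of the replicative helicase, at 295 to 352 TPM. Mitosis genes spanned from CENPE, a kinetochore motor, at 16.9 to 24.5 TPM, to CCNB1, the cyclin partner of CDK1, at 249 to 323 TPM. Next to CCNB1 in order, CDC20, an activator of the anaphase-promoting complex, was at 248 to 301 TPM, and these ranges overlapped. Between the 3 KYSE140 control groups, the highest group mean was 1.28 times the lowest for the median replication gene and 1.2 times for the median mitosis gene, so each comparison below uses its own controls. In the SKMES1 controls 3 replication genes lay above every KYSE140 control, 10 lay below and 8 overlapped, and of the mitosis genes 9 lay above, 6 below and 9 overlapped. Of the 14849 genes with a mean of at least 1 TPM in the controls, 35.6% lay above and 27.9% below, so a difference between the lines was as common over all genes as in these lists. TYMS (thymidylate synthase) was at 253 and 266 TPM in SKMES1 against 63.6 to 111 TPM in KYSE140, and MCM7 at 63.0 and 68.7 TPM. No KYSE140 library carries the activation vectors of the SKMES1 libraries, so vector and line cannot be told apart.

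**Figure D1:**
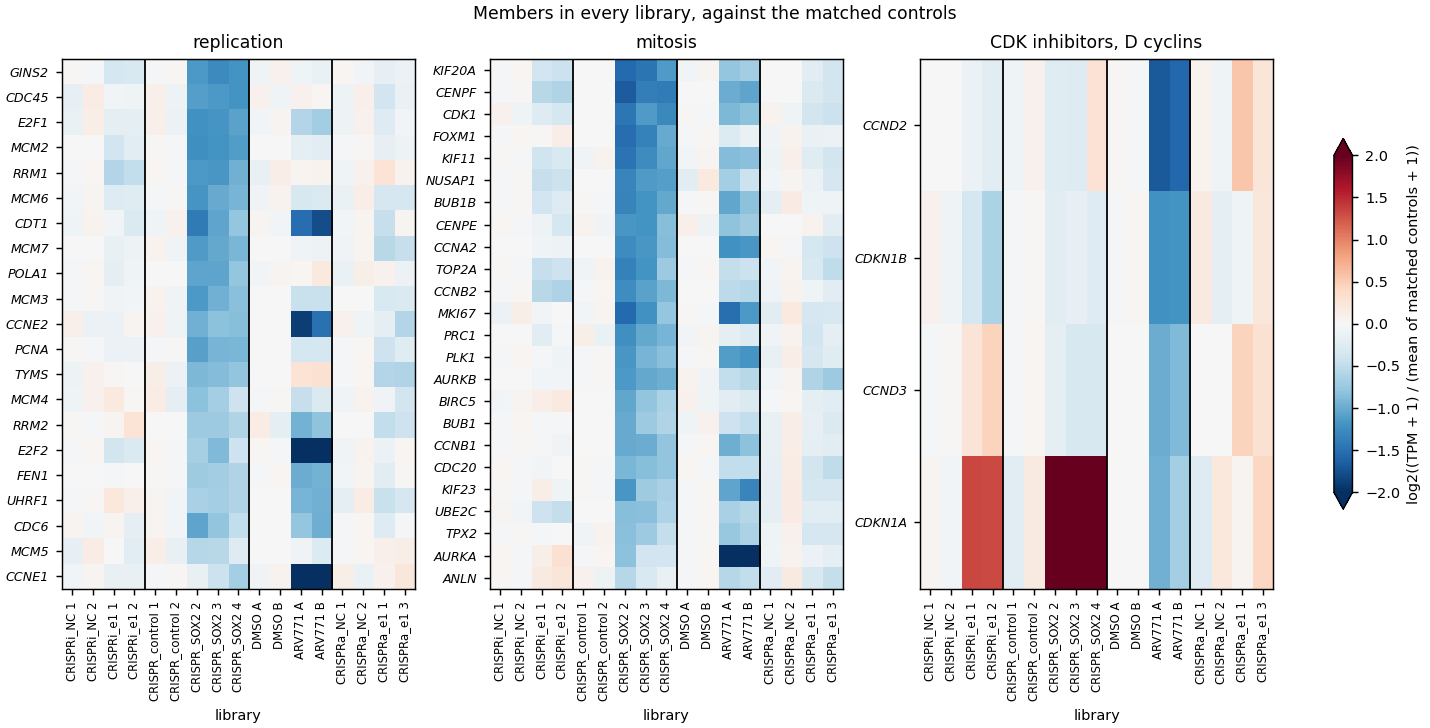
Log2 of (TPM + 1) over (mean of the matched controls + 1) for every member in every library, 1 column per library, replication genes on the left, mitosis genes in the middle and inhibitors and D cyclins on the right, each sorted by the SOX2 knockout fold change. CDKN2B, at 0 in all libraries, is left out. The CRISPR_SOX2 columns are below 0 across the 21 replication and 24 mitosis genes, and the ARV771 columns are lowest at single genes such as CCNE1, E2F2 and AURKA.

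SOX2 knockout lowered most genes of both lists. Of the 21 replication genes 15 fell and 0 rose, with a median log2 fold change of -0.79, where 13.5% of the 13978 genes tested fell and the median of all was -0.01. Of the 24 mitosis genes 20 fell and 0 rose, with a median of -0.88. The summed level of the replication genes was 1859 and 1995 TPM in control cells and 965.2 to 1128 TPM in the knockouts. That of the mitosis genes was 2491 and 2494 TPM against 1145 to 1438 TPM, so neither overlapped. Over all genes the median log2 fold change was -0.17 in limma on log2(TPM + 1). On the scaled counts every knockout library lay below both controls for 20 of the 21 and 23 of the 24 genes, against 33.9% of all genes tested. In a bulk sample fewer cycling cells and less of these RNAs per cell cannot be told apart. The guides to SOX2 cut a gene that the paper reports as amplified in KYSE140, and the part of cutting was not tested.

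Among the parts of the replication machinery, GINS2, a subunit of the GINS complex that joins the helicase at origins, was at 33.7 and 35.4 TPM in control cells and at 15, 13.6 and 14.4 TPM with guides 2, 3 and 4. GINS2 fell by 1.12 on the log2 scale (SE 0.09, edgeR quasi-likelihood test, Benjamini-Hochberg adjusted p = 6.9e-07). The 3 knockout libraries stayed well under the controls and close to each other. CDC45, which with GINS and the MCM ring forms the active helicase, went from 52.0 and 44.8 TPM to 21.9, 21.4 and 20.6 TPM. CDC45 fell by 1.03 (SE 0.11, edgeR adjusted p = 8.0e-06), again with no overlap. E2F1, a transcription factor that activates S-phase genes, was at 37.8 and 32.3 TPM in control cells and at 14.6, 14.9 and 16.1 TPM in the knockouts, and fell by 1.01 (SE 0.10, edgeR adjusted p = 5.0e-06).

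The other replication genes that fell include 5 of the 6 MCM helicase subunits (MCM2, MCM3, MCM4, MCM6 and MCM7, log2 fold changes from -1.0 for MCM2 to -0.72 for MCM4), the origin licensing factor CDT1, POLA1, the sliding clamp PCNA, both ribonucleotide reductase subunits RRM1 and RRM2, TYMS and CCNE2. The least of the called changes was RRM2 at -0.63. Not called were E2F2 at -0.56, FEN1 (flap endonuclease) at -0.54, UHRF1, which helps to copy DNA methylation, at -0.46, CDC6, which loads the MCM ring, at -0.45, MCM5 at -0.35 and CCNE1 at -0.13. CCNE1 encodes a cyclin E, the partner of CDK2, and was at 25.7, 21.1 and 17.5 TPM in the knockouts against 28.1 and 29.3 TPM in the controls (edgeR adjusted p = 0.44).

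The mitosis genes that fell include regulators of entry into mitosis and of cell cleavage. KIF20A, a kinesin of the cleavage apparatus, was at 104 and 106 TPM in control cells and at 35.3, 37.8 and 47.6 TPM with guides 2, 3 and 4, and fell by 1.21 (SE 0.08, edgeR adjusted p = 1.3e-07). CENPF, a kinetochore protein, went from 41.9 and 42.8 TPM to 12.7, 15.6 and 15.5 TPM and fell by 1.16 (SE 0.09, edgeR adjusted p = 3.9e-07). FOXM1, the transcription factor of the late cell cycle, was at 101 TPM in both controls and at 34.6, 39.1 and 49.5 TPM in the knockouts, a fall of 1.10 (SE 0.10, edgeR adjusted p = 3.1e-06). In all 3 the groups were far apart, and guide 2 gave the lowest level. CDK1, the kinase that drives entry into mitosis, was at 173 and 172 TPM and then 62.9, 78.1 and 70.0 TPM, and also fell by 1.10 (SE 0.08, edgeR adjusted p = 4.3e-07). The 4 mitosis genes not called were UBE2C at -0.57, TPX2 at -0.48, AURKA at -0.36 and ANLN, an actin-binding protein of the cleavage furrow, at -0.14.

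The levels of these genes differed between the libraries of the 3 guides. The median log2 ratio of TPM to the control mean was -1.09, -0.96 and -0.85 over the replication genes and -1.25, -1.07 and -0.87 over the mitosis genes for guides 2, 3 and 4. This is the order of the SOX2 level under the same guides (103, 125 and 221 TPM). The level was lowest with guide 2, higher with guide 3 and highest with guide 4 in 13 of the 21 replication genes and 21 of the 24 mitosis genes, where 27.4% of all genes tested had that order and 64.4% were lower with guide 2 than with guide 4. With 3 libraries, and a single one per guide, guide and pool cannot be told apart. These ratios are of TPM without TMM scaling, and over all genes the knockout median was -0.17 in limma on log2(TPM + 1). The summed squamous markers were at 45752.8, 43598.5 and 36812 TPM with guides 2, 3 and 4, and their part in the order was not tested. The order is a description and carries no test.

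**Figure D2:**
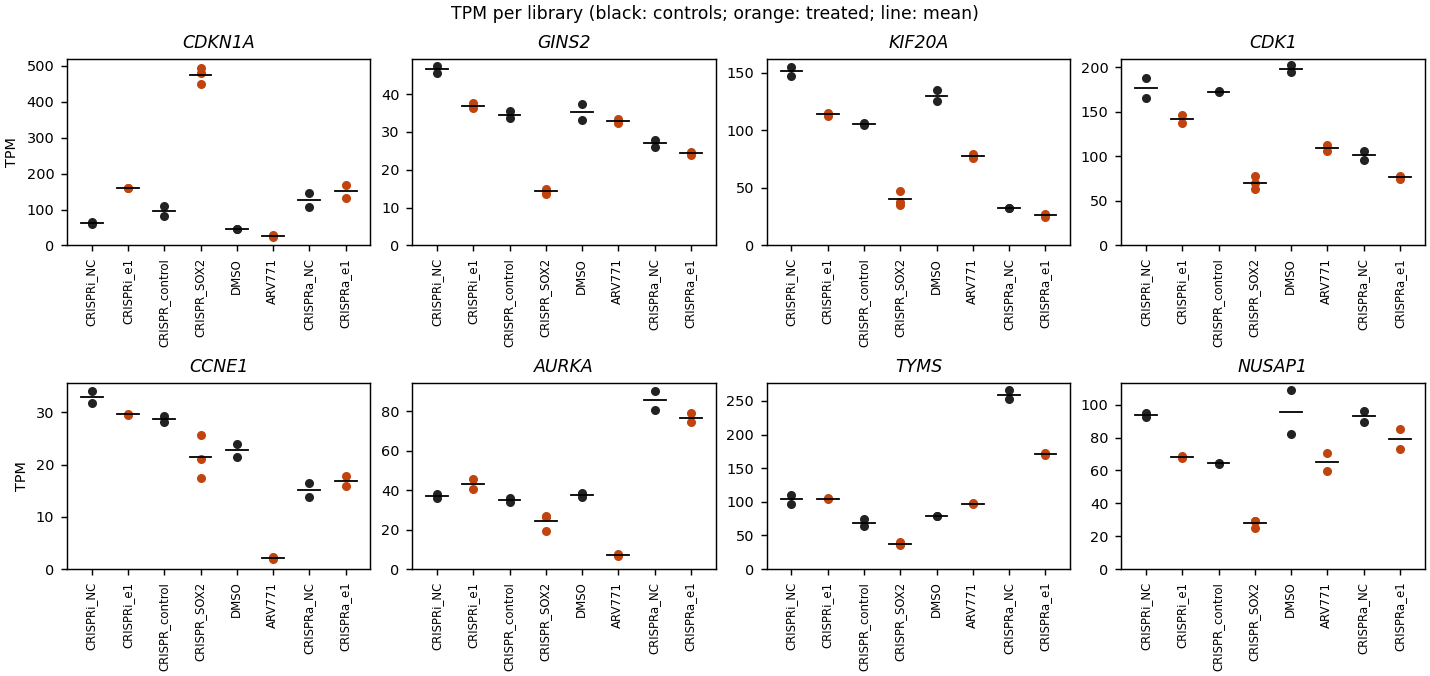
TPM of 8 members in every library, by group, with the group mean as a line; controls are black and treated libraries orange, and each vertical axis starts at 0. CDKN1A is at 449 to 495 TPM in the knockouts, where GINS2, KIF20A and CDK1 are below their own controls, and CCNE1 and AURKA are lowest with ARV-771.

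CDKN1A, which encodes a CDK inhibitor (GRCh37 chr6:36644237-36655114, plus strand), moved the other way. Its level was 83.0 and 109 TPM in control cells and 495, 479 and 449 TPM in the knockouts, all far above the controls. CDKN1A rose by 2.56 on the log2 scale, or 5.89-fold (SE 0.12, edgeR adjusted p = 6.8e-09), where 16.3% of genes tested rose. The other measurable regulators moved little. CDKN1B, a further CDK inhibitor, was at 39.0 and 40.7 TPM in control cells and 34.4, 35.6 and 33.2 TPM in the knockouts, with a log2 fold change of -0.01 (SE 0.09). The D-type cyclins, which activate CDK4 and CDK6, gave 22.2 and 25.3 TPM against 20, 19.7 and 29.2 TPM for CCND2 and 48.5 and 51.0 TPM against 43.8, 39.7 and 39.5 TPM for CCND3. Their log2 fold changes were -0.07 (SE 0.08) and 0.00 (SE 0.09), and the signs of these 3 small values turned when a single library or the scaling was changed. Lower TPM in the knockouts was common over all genes, with a median log2 fold change of -0.17 in limma on log2(TPM + 1).

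CDKN2B, a CDK4 and CDK6 inhibitor on chromosome 9 (GRCh37 chr9:22002902-22009304, minus strand), had an expected count of 0 in all 17 libraries, as had its neighbour CDKN2A. A library of this depth sets a limit of 3 counts, or 0.19 to 0.413 CPM (counts relative to library size), for counting error only. MTAP, a nearby gene chosen after its values were seen, was at 16.3 to 78.3 TPM. CDKN2B was therefore left out of all tests, and 4 of the 5 inhibitors and D cyclins were tested.

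The wider pathway was taken from lists of genes that are not members. Over all genes tested 13.5% fell and 16.3% rose in the knockout. Of 32 other replication genes 28 fell and 0 rose in the knockout, led by the clamp loader subunit RFC5 at -1.39. Of 42 other mitosis genes 35 fell and 0 rose, led by the kinesin KIF15 at -1.37 and the phosphatase CDC25C at -1.30. Of 29 tested regulators of the RB, E2F and CDK axis 11 fell, led by SKP2, a subunit of the ubiquitin ligase that targets CDKN1B, at -1.31 and the inhibitor CDKN2C at -1.26, and 1 rose (LIN37, a MuvB subunit, at 0.90). The medians of the 3 lists were -0.83, -0.82 and -0.49.

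Markers of differentiation and of other cell types also moved. Of 8 squamous markers 7 rose, where 16.3% of all genes tested did, and TP63 fell. The summed level of the markers was 8787 and 8904 TPM in control cells and 36812 to 45753 TPM in the knockouts. Of 5 fibroblast markers only COL1A1 was tested, at 39.1 to 43.9 TPM against 9.81 and 15.3 TPM, and of 3 leukocyte markers only CD68, at 53.8 to 70.2 TPM against 3.24 and 3.93 TPM. The defining leukocyte genes PTPRC and CD3E were at 0.00 to 0.23 TPM in these 5 libraries. The part of differentiation in the fall of the cell cycle genes was not tested. With scaling by library size alone the median of all genes was -0.21 and the list medians were -1.0 and -1.08, so the fall exceeded the shift under either scaling.

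The promoters of the 3 replication genes and of 3 mitosis genes with the largest falls are shown because genes of these lists moved together and their promoters differ in known elements. FOXM1, which ranked between CENPF and CDK1, is among those not in the table used, with MCM4, MCM5, CCNE2, AURKA, TPX2, UBE2C, BIRC5 and CCND2; the other 41 members matched by symbol. Sequences are from RefSeq on GRCh38.p14, in windows of 300 bases that span the start, most of them before it, 5′ to 3′ on the strand of the gene, and the expression files used hg19. Capitals mark 3 kinds of motif on either strand. The CCAAT box is spelled by its name. The CHR element was taken as TTTGAA or its variant TTCGAA. The E2F motif was taken as TTCCCGC or as any of the variant spellings TTGGCGC (with a GG core), TTCGCGC (with a CG core) and also TTGCCGC. GINS2 (chr16:85688905-85689204, minus strand), E2F1 (chr20:33686336-33686635, minus strand) and CDC45 (chr22:19479670-19479969, plus strand, the first of 3 listed starts) are the replication genes.
GINS2: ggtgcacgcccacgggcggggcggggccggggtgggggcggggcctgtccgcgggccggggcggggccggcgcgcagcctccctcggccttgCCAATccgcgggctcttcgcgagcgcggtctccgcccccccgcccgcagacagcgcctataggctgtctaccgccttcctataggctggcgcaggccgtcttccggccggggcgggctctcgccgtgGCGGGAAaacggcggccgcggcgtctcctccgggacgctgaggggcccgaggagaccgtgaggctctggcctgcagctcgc
E2F1: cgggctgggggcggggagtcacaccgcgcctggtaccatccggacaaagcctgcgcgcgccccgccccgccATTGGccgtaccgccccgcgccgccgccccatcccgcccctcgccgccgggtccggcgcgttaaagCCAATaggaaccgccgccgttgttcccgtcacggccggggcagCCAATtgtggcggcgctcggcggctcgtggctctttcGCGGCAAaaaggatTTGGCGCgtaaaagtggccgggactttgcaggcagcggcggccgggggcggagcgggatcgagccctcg
CDC45: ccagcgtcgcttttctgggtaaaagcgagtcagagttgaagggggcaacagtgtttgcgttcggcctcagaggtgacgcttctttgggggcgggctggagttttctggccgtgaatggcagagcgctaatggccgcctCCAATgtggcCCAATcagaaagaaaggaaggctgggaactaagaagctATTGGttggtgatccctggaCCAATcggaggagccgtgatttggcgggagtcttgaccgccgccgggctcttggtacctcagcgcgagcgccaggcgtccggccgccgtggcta
KIF20A (chr5:138178862-138179161, plus strand), CENPF (chr1:214602945-214603244, plus strand) and CDK1 (chr10:60778081-60778380, plus strand, the first of 2 listed starts) are the mitosis genes.
KIF20A: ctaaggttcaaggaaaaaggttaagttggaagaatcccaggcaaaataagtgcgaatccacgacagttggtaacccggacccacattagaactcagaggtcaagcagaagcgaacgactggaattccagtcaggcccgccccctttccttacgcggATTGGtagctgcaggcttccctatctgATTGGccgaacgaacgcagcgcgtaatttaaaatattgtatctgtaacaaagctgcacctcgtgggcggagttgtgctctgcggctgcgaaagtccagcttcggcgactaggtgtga
CENPF: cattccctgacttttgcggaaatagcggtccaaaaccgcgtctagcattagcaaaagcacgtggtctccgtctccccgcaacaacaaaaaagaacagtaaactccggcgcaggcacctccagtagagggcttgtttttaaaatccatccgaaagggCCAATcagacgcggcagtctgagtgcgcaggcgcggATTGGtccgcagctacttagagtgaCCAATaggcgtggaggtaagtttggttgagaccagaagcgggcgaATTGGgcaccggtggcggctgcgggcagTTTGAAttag
CDK1: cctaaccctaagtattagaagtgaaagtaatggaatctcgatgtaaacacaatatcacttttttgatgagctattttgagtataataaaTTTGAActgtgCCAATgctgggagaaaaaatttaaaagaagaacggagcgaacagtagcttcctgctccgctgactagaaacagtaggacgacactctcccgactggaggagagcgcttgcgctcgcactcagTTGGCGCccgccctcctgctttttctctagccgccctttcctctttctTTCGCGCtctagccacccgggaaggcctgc

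In these windows GINS2 held 1 E2F motif, E2F1 held 2 and CDC45 held 0, while CENPF and CDK1 each held 1 CHR element and KIF20A held 0. CDK1 also held 2 E2F motifs. Counting a gene if any listed start held the motif, E2F motifs were in 15 of 18 replication genes, 3 of 19 mitosis genes and 15.3% of the 27305 genes of the table. CHR elements were in 2 of 18 replication genes, 14 of 19 mitosis genes and 19.5% of all genes. CCAAT was in 12 and 16 of them and in 39.7% of all genes. Of the 35116 single promoters, 13.0% held an E2F motif, 16.4% a CHR element and 34.6% CCAAT. The promoter of CDKN1A held none of the 3. A match is a string of letters and does not show that a factor binds.

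Repression of e1 left nearly all of the same genes uncalled. Of the 21 replication genes 0 were called (edgeR), where 20.0% of the 13792 genes tested were, although 9 had an unadjusted p under 0.05, against 51.1% of all genes, and 8 an adjusted p under 0.05 at any fold, against 44.3%, 2 up and 6 down. DESeq2 and limma on log2(TPM + 1) also called 0. The median log2 fold change was -0.10 for these genes, -0.10 for the mitosis genes and 0.00 for all genes tested. Of the 24 mitosis genes 1 fell, against 10.7% of all genes. At any fold 13 of them had an adjusted p under 0.05 (edgeR), 2 up and 11 down, where 22.2% of all genes were up and 22.1% down. Summed levels were 2198 and 2275 TPM in controls and 2093 and 2099 TPM with e1 guides for replication, and 2942 and 2949 TPM against 2664 and 2687 TPM for mitosis, which do not overlap.

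The mitosis gene that fell was NUSAP1, a microtubule-binding protein of the spindle (GRCh37 chr15:41612992-41673248, plus strand). NUSAP1 was at 92.3 and 95 TPM in control cells and 67.7 and 69.0 TPM with e1 guides, and fell by 0.59 (SE 0.08, edgeR quasi-likelihood test, Benjamini-Hochberg adjusted p = 1.3e-05). Its fold lay at the edge of the limit of 1.5. Without CRISPRi_NC replicate 1 or CRISPRi_e1 replicate 2 it was -0.51 and not called, and without CRISPRi_e1 replicate 1 CCNB2, a cyclin partner of CDK1, was called as well at -0.60. CCNB2 was at 84.6 and 88.0 TPM in control cells and 58.2 and 55.9 TPM with e1 guides. RRM1 had the lowest value of the replication genes, with 127 and 134 TPM against 87.0 and 92.2 TPM, a log2 fold change of -0.53 (SE 0.06) under the limit of 1.5-fold.

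CDKN1A rose here too, from 65.5 and 60.7 TPM to 160 TPM with either guide, by 1.43 on the log2 scale (SE 0.06, edgeR adjusted p = 5.2e-11), where 9.30% of genes tested rose. Both e1 libraries were far above the controls. CDKN1B was at 50.6 and 45 TPM in control cells and 37.3 and 30.6 TPM with e1 guides, a log2 fold change of -0.39 (SE 0.09, edgeR adjusted p = 0.00266) short of the fold limit. CCND3 stood at 41.9 and 43.4 TPM against 51.5 and 58.2 TPM (0.38, SE 0.08) and CCND2 at 20.4 and 20.5 TPM against 18.7 and 17.3 TPM (-0.15, SE 0.07), and neither was called.

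In the wider lists 1 of 32 other replication genes fell and 0 rose, where 10.7% of all genes tested fell and 9.30% rose. Of 42 other mitosis genes 0 were called by edgeR. With smaller folds 23 had an unadjusted edgeR p under 0.05 and 22 an adjusted p under 0.05. Over all genes, at any fold, these shares were 51.1% and 44.3%. Of 29 regulators 4 fell, near the 10.7% of all genes, led by CDKN2C at -0.92 and the inhibitor CDKN1C at -0.79. LIN37 rose by 0.75. The summed squamous markers were 7235 and 7275 TPM in control cells and 12884 and 13062 TPM with e1 guides. Of the 8 markers 3 were called higher and 2 lower, against 9.30% and 10.7% of all genes. COL1A1, the only fibroblast marker tested, rose by 1.29, from 15.88 and 13.47 TPM to 37.31 and 38.28 TPM. CD68, the only leukocyte marker tested, rose by 4.84, from 1.08 and 0.84 TPM to 24.36 and 25.76 TPM, with PTPRC at 0.00 to 0.03 TPM and CD3E at 0.00 TPM. The part of these markers in the values above was not tested.

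**Figure D3:**
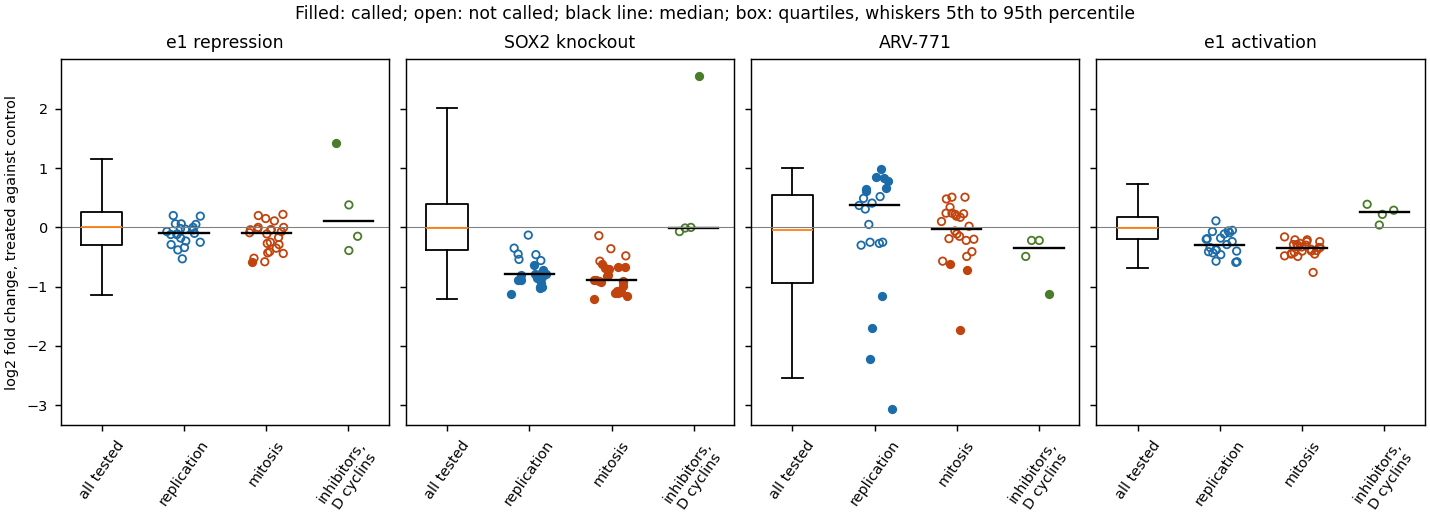
Log2 fold change of each member (points) in the 4 comparisons, by list, beside the quartiles and 5th to 95th percentiles of all genes tested (box and whiskers). Filled points are called genes, open points are not, and black lines are list medians. In SOX2 knockout 15 replication and 20 mitosis genes are filled and below 0, in e1 repression 0 and 1, and in e1 activation none.

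Repressing e1 and knocking out SOX2 were then set against each other by an interaction contrast over their 9 libraries, which share no control. The log2 fold change was higher in e1 repression than in knockout for all 21 replication genes and all 24 mitosis genes. The difference was called for 15 and 16 of them, and 0 were called lower. Of the 14455 genes tested 8.21% were called higher and 8.37% lower. The median difference was 0.70 and 0.69, against 0.03 for all genes. The largest among the replication genes were CDC45 at 0.94, CCNE2 at 0.87 and E2F1 at 0.86. CCNE2, the other cyclin E, was at 32.8 and 29.1 TPM under knockout control guides and 15.4, 17.1 and 16.6 TPM in the knockouts, but at 31.9 and 27.4 TPM under CRISPRi control guides and 27.2 and 30.7 TPM with e1 guides. Its groups were apart in the knockout and overlapped in e1 repression.

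Among mitosis genes the largest differences were FOXM1 at 1.24, BIRC5 at 0.94 and CCNA2 at 0.87. FOXM1 was at 124 and 131 TPM under CRISPRi control guides and 130 and 140 TPM with e1 guides. BIRC5, a subunit of the chromosomal passenger complex, was at 70 and 75 TPM under CRISPRi control guides and 79.8 and 83.6 TPM with e1 guides, but at 61.2 and 62.4 TPM under knockout control guides and 29.5, 35.5 and 39.3 TPM in the knockouts. CCNA2 (cyclin A2) was at 65.9 and 65.8 TPM against 63.0 and 61.4 TPM with e1 guides, and at 57.7 and 56.6 TPM against 23.4, 25 and 30.9 TPM in the knockout. For all 3 the knockout gave the clear fall and e1 repression gave a small shift in either direction.

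CDKN1A rose less with e1 repression than in the knockout, with a difference of -1.11 (SE 0.15, edgeR quasi-likelihood test, Benjamini-Hochberg adjusted p = 8.4e-05). The 6 replication genes and 8 mitosis genes without a called difference include NUSAP1 at 0.51, CCNB2 at 0.34, UBE2C at 0.18 and CCNE1 at 0.11. Of the wider lists 20 of 32 other replication genes and 28 of 42 other mitosis genes were called higher and 0 lower. Over all genes 8.21% were called higher and 8.37% lower. The largest differences were RFC3, a clamp loader subunit, and NCAPH, a condensin subunit, both at 1.10. The SOX2 level was 120 and 128 TPM with e1 guides and 103 to 221 TPM in the knockouts. The knockout used Cas9, which cuts DNA, and e1 repression the inactivated dCas9. Cas9 form, vectors, guides and selected pools thus differ between the experiments, and their part in the difference cannot be told apart.

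**Figure D4:**
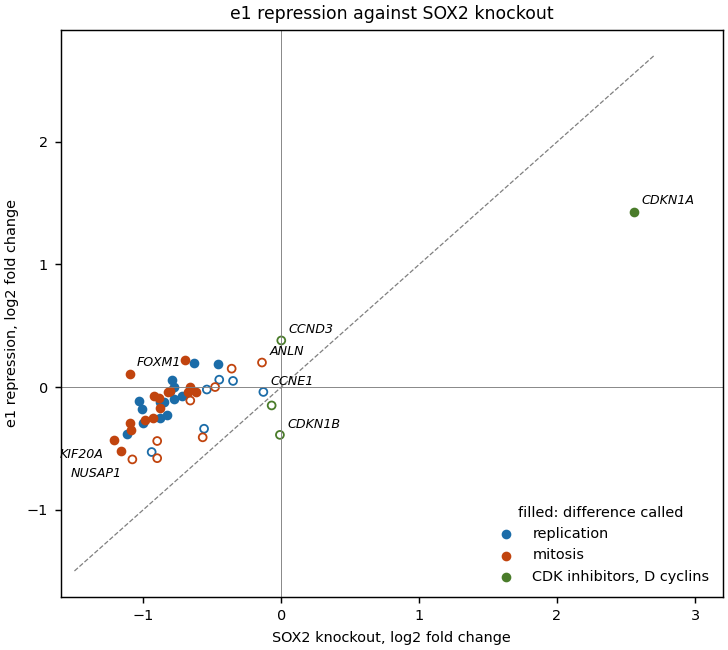
Log2 fold change in e1 repression (vertical) against SOX2 knockout (horizontal) for the 49 tested members, with the line of equal change dashed; filled points have a called difference. All replication and mitosis genes lie above the line, between -1.21 and -0.13 in the knockout and between -0.59 and 0.22 in e1 repression. CDKN1A lies below the line at 2.56 and 1.43.

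ARV-771 split the replication genes. After TMM scaling 4 of the 21 fell and 7 rose, with a median log2 fold change of 0.37, where 31.7% of the 13500 genes tested fell, 21.2% rose and the median was -0.04. Of the 24 mitosis genes 3 fell and 0 rose, with a median of -0.02. The 7 higher calls depend on the scaling. With library size alone, where the median of all genes was -0.50, 0 replication genes rose and 8 fell, against 2.82% and 45.0% of all genes. Limma on log2(TPM + 1) gave 0 and 9, against 0.926% and 48.0%, and scaling to mitochondrially encoded genes gave 0 and 13, against 0.585% and 70.5%. The shares of the list that fell were thus near or below those of all genes in each fit. Mitochondrially encoded genes took 4.67% and 5.28% of the counts in DMSO and 7.74% and 7.52% with ARV-771, and the part of this shift in the values was not tested. In TPM the summed level of the replication genes was 1961 and 1989 in DMSO and 1558 and 1560 with ARV-771. That of the mitosis genes was 2905 and 2971 against 1821 and 1880, and neither overlapped. Lower TPM was common over all genes, with a median log2 fold change of -0.60 in limma on log2(TPM + 1).

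The 4 replication genes that fell did so in all 9 fits that differed in scaling, filter, samples or test. CCNE1 was at 21.5 and 23.9 TPM in DMSO and 2.24 and 1.94 TPM with ARV-771, and fell by 3.06 (SE 0.19, edgeR quasi-likelihood test, Benjamini-Hochberg adjusted p = 4.3e-13). E2F2, an activating E2F factor, went from 12.8 and 12.0 TPM to 1.25 and 1.93 TPM and fell by 2.22 (SE 0.14, edgeR adjusted p = 5.1e-13). CCNE2 was at 26.2 and 26.4 TPM and then at 6.43 and 8.72 TPM, and fell by 1.70 (SE 0.11, edgeR adjusted p = 9.3e-13). Both cyclin E genes and E2F2 were thus separated from DMSO by several times the gap between cultures. CDT1 fell by 1.15 (SE 0.08, edgeR adjusted p = 4.4e-12). Over the 9 fits CCNE1 ranged from -4.13 to -2.94 and CDT1 from -2.23 to -1.07.

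On the higher side, relative to the other genes of each library, TYMS was at 79.4 and 79.1 TPM in DMSO and 96.4 and 98.0 TPM with ARV-771, and rose by 0.99 after TMM (SE 0.06, edgeR adjusted p = 5.7e-13) but was at -0.09 with mitochondrial scaling. POLA1 was at 7.68 and 8.39 TPM in DMSO and 8.28 and 9.29 TPM with ARV-771, so its groups overlap in TPM, and it rose by 0.85 after TMM (SE 0.09, edgeR adjusted p = 5.4e-09) and was at -0.23 with mitochondrial scaling. RRM1 was at 139 and 169 TPM in DMSO and 160 and 163 TPM with ARV-771, again with overlap, and rose by 0.83 after TMM (SE 0.06, edgeR adjusted p = 2.7e-12) and was at -0.25 with mitochondrial scaling. A change of library scaling moves all genes by about the same amount. The order within the list, with TYMS above CCNE1, therefore could not change between scalings and is no check of them. CDC45, MCM5, MCM7 and GINS2 also rose after TMM, by 0.61 to 0.79, and were below 0 with mitochondrial scaling.

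AURKA, a kinase of the spindle poles (GRCh37 chr20:54944445-54967393, minus strand), had the largest fall of the mitosis genes. AURKA was at 36.8 and 38.8 TPM in DMSO and 7.42 and 6.72 TPM with ARV-771, and fell by 1.74 (SE 0.10, edgeR adjusted p = 1.4e-13). MKI67, which encodes the proliferation antigen at the surface of mitotic chromosomes, went from 54.6 and 53.4 TPM to 18.4 and 23.7 TPM and fell by 0.72 (SE 0.05, edgeR adjusted p = 8.6e-12). AURKA and MKI67 fell in all 9 fits. KIF23, a kinesin of the central spindle, was at 71.2 and 75.2 TPM in DMSO and 34.9 and 28.6 TPM with ARV-771, and fell by 0.62 (SE 0.06, edgeR adjusted p = 1.9e-09). KIF23 was called in 6 of the 9 fits. It was not called with RLE factors or DESeq2, both at -0.58, or with all libraries in one fit, at -0.55. With library size alone 10 mitosis genes fell, near the 45.0% of all genes, and with mitochondrial scaling 22 fell, where 70.5% of all genes did.

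Of the D cyclins examined, CCND2 was called with ARV-771 after TMM scaling. It was at 15.6 and 14.9 TPM in DMSO and 4.07 and 4.49 TPM with ARV-771, and fell by 1.12 (SE 0.08, edgeR adjusted p = 1.1e-11) and in all 9 fits. CDKN1A, which rose in both SOX2 experiments, was at 46.6 and 46.2 TPM in DMSO and 23.4 and 28.5 TPM with ARV-771, with a log2 fold change of -0.22 (SE 0.07) after TMM and -0.68 with library size alone. CDKN1B was at 61.7 and 65.3 TPM and then 26.8 and 27.1 TPM (-0.49, SE 0.07), and CCND3 at 27.7 and 27.4 TPM and then 13.3 and 14.4 TPM (-0.22, SE 0.09). These 3 were below DMSO in both cultures and were called with library size alone, at -0.68 to -0.95, but not after TMM.

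**Figure D5:**
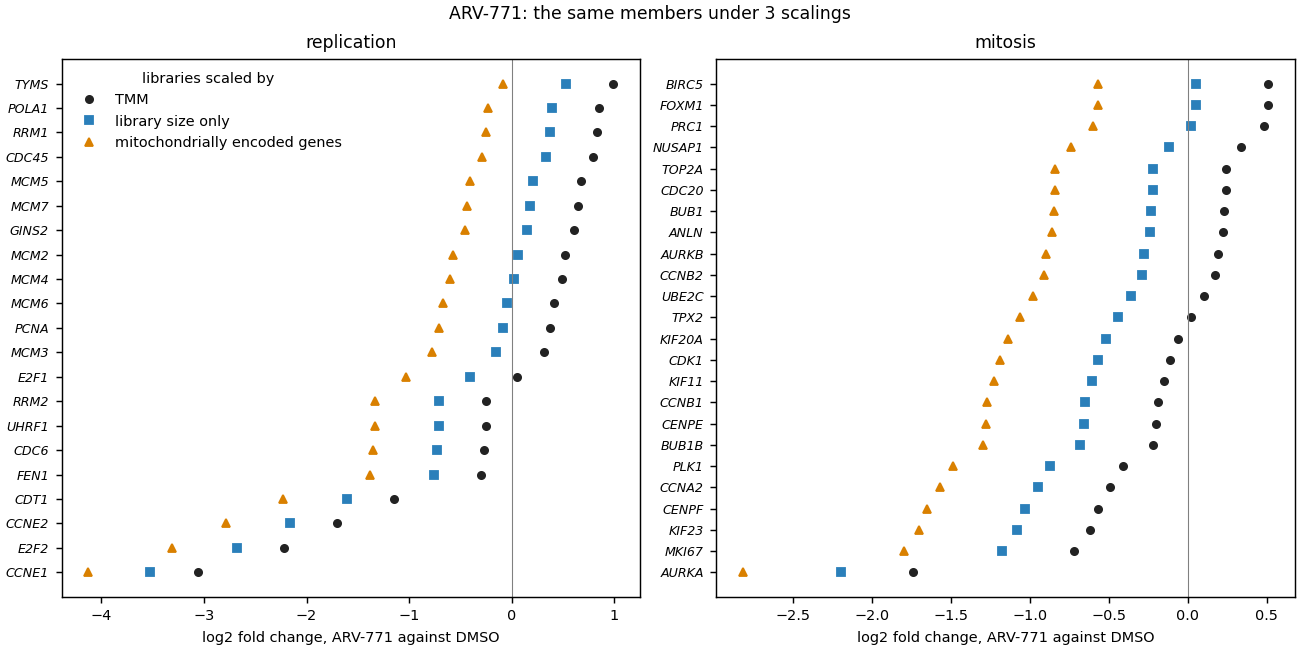
Log2 fold change of each replication (left) and mitosis gene (right) with ARV-771 against DMSO, with libraries scaled by TMM (circles), by library size alone (squares) or by mitochondrially encoded genes (triangles). Both lists shift to lower values, from medians of 0.37 and -0.02 with TMM to -0.71 and -1.10 with mitochondrial scaling. CCNE1 and AURKA are lowest, and a change of scaling moves all genes about equally, so it cannot alter this order.

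In the wider lists genes were called in both directions, for replication at shares near the 31.7% and 21.2% of all genes that fell and rose and for mitosis below them. Of 32 other replication genes 9 fell, led by the phosphatase CDC25A at -3.99 and the polymerase subunit POLD3 at -2.31, and 9 rose, led by TK1 (thymidine kinase) at 0.97. Of 42 other mitosis genes 9 fell, led by CCNF (cyclin F) at -2.36 and the kinesin KIF18A at -1.15, and 4 rose, led by CKS1B, a CDK subunit, at 1.07 and PTTG1 (securin) at 0.81. Of 29 regulators 14 fell, led by the repressors E2F8 at -3.23 and E2F6 at -2.72, and 4 rose, led by CDK4 at 0.91 and MYBL2, a MuvB partner, at 0.78. These higher values too are relative to TMM scaling. The squamous marker sum was 7363 and 7645 TPM in DMSO and 7196 and 7532 TPM with ARV-771, while 4 of the 8 markers rose after TMM (KRT6A the most, at 0.95) and TP63 fell by 1.48. The leukocyte marker CD68 rose by 2.45, from 0.44 and 0.36 TPM to 1.83 and 2.91 TPM, with PTPRC at 0.00 TPM in these libraries. The part of these markers was not tested.

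In SKMES1, e1 activation gave 0 called members in either list (edgeR), where 0.188% of the 14859 genes tested were called. Unadjusted p was under 0.05 for 10 of the 21 replication genes and 17 of the 24 mitosis genes, against 14.2% of all genes. DESeq2 called 1 gene of each list, TYMS at -0.59 and AURKB, a kinase of the chromosomal passenger complex, at -0.76, where it called 2.69% of all genes, and limma on log2(TPM + 1) called 0. The log2 fold change was below 0 for 20 of the 21 replication genes, with a median of -0.29, and for all 24 mitosis genes, with a median of -0.34, where 50.6% of all genes were below 0 and the median was 0.00. On the scaled counts both e1 libraries lay below both controls for 16 and 24 of them, against 23.4% of all genes.

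AURKB was at 77.9 and 84.5 TPM in control cells and 53.0 and 48.8 TPM with e1 guides, a log2 fold change of -0.76 (SE 0.11, edgeR quasi-likelihood test, Benjamini-Hochberg adjusted p = 0.112). TYMS was at 253 and 266 TPM and then at 173 and 170 TPM (-0.59, SE 0.09, edgeR adjusted p = 0.118). MCM7 was at 63.0 and 68.7 TPM and then at 44.3 and 47.8 TPM (-0.58, SE 0.09). The groups are apart for each, but no edgeR adjusted p was under 0.05. CCNE1 was the replication gene above 0, at 16.5 and 13.7 TPM against 16 and 17.8 TPM (0.11, SE 0.15), and its groups overlapped.

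The inhibitors and D cyclins were not called in SKMES1. CDKN1A was at 107 and 147 TPM in control cells and 132 and 169 TPM with e1 guides (0.22, SE 0.20), and CDKN1B at 24.1 and 18.5 TPM against 20.1 and 25.1 TPM (0.04, SE 0.17), both with overlap. CCND2 was at 8.09 and 7.14 TPM against 11.6 and 9.18 TPM (0.39, SE 0.16), and CCND3 at 57.8 and 59.1 TPM against 79.9 and 72.1 TPM (0.29, SE 0.09), both higher in each e1 library. Of the wider lists 0 genes were called by edgeR. Unadjusted edgeR p was under 0.05 for 15 of 32 other replication genes, 33 of 42 other mitosis genes and 9 of 29 regulators. The share over all genes was 14.2%. Without CRISPRa_NC replicate 1, 3 replication genes (MCM7, TYMS and UHRF1) and 3 mitosis genes (ANLN, AURKB and CDC20) fell, where 3.16% of all genes did. Without CRISPRa_NC replicate 2, the library that stood apart, 0 and 1 (AURKB) fell, against 0.730% of all genes. The squamous marker sum was 86.21 and 1248 TPM in control cells and 79.29 and 237.6 TPM with e1 guides, and its part in these values was not tested.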

How the data were processed

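Poly-A RNA of 17 libraries was sequenced by the authors after preparation with a directional kit. Per the labels and the study's methods, the authors used Bowtie2 for alignment to hg19 and RSEM for GENCODE gene levels; their versions and strand setting are not given in the sources used here. The deposited expected counts are RSEM estimates, not normalized between libraries, in which a read that fits several genes is shared among them. The deposited TPM values were scaled by the authors within each library and corrected for effective length, so a ratio of TPM can differ from a ratio of counts. The deposited FPKM values were not used. No authors' comparison columns were used.

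Groups came from the labels. Rounded expected counts entered edgeR 4.0.16 (R 4.3.3, quasi-likelihood F test, TMM scaling, filterByExpr with minimum count 10 and minimum total 15), over all genes and only the libraries compared. Calls needed a fold change over 1.5 and, after Benjamini-Hochberg adjustment, p under 0.05. The SE is the size of the log2 value over the root of F. Alternatives were RLE factors, library size only, DESeq2 1.42.0, no filter, no minimum fold change, all libraries in one fit, limma 3.58.1 on log2(TPM + 1) at a mean TPM of at least 1, a replicate block, leaving out each library and, for ARV-771, scaling to mitochondrially encoded genes. Same-numbered deviations correlated at 0.016 over 11145 genes in e1 repression and -0.024 over 10855 genes in ARV-771. The main edgeR fit, DESeq2 and limma were tested on simulated counts for each treated group against its controls. The interaction contrast and the other alternatives were not.

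Members, lists and alternatives were chosen with earlier results of these data known. Values in every library are given for up to 3 called members per list, direction and comparison with the largest change and for all inhibitors and D cyclins. AURKB, TYMS, MCM7 and CCNE1 in e1 activation, CCNE1 and CDK1 in the knockout, and CCNB2 and RRM1 in e1 repression were added after their values were seen. Wider lists give counts and at most 2 genes per direction. Some items are not reported here. A floor of 3 counts is 0.19 to 0.413 CPM, for counting error only. Gene coordinates are from GENCODE 44 on GRCh37 (hg19), where 49 of the 50 members matched by identifier.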

Additional observations from a re-analysis of the deposited data

Results flagged for a closer look

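For 32 members the effect of e1 repression differed from that of SOX2 knockout in the test of the difference itself (edgeR interaction contrast, fold over 1.5 and p under 0.05 after Benjamini-Hochberg adjustment). Values are the log2 fold change in e1 repression minus that in the knockout. All 15 replication genes were higher in e1 repression, namely CDC45 by 0.94, CCNE2 by 0.87, E2F1 by 0.86, RRM2 by 0.85, MCM3 by 0.81, TYMS by 0.80, CDT1 by 0.78, MCM7 and GINS2 by 0.75, MCM2 by 0.73, PCNA by 0.70, MCM4 by 0.67, UHRF1 by 0.66, MCM6 by 0.65 and POLA1 by 0.62.

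The 16 mitosis genes were also higher, namely FOXM1 by 1.24, BIRC5 by 0.94, CCNA2 by 0.87, CDK1 by 0.83, MKI67 by 0.82, AURKB and PLK1 by 0.81, KIF20A by 0.80, KIF11 by 0.76, BUB1B by 0.74, PRC1 by 0.73, CENPE by 0.70, CDC20 by 0.68, BUB1 and CENPF by 0.67 and KIF23 by 0.61. CDKN1A was lower, at -1.11. UHRF1, POLA1, CENPF, KIF23 and CENPE lost the call when 1 library was left out, with values between 0.44 and 0.58. No group held 4 or more libraries, so no library was examined as an outlier within its group.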

How the results depend on the processing

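Without a minimum fold change, 8 replication and 13 mitosis genes were called in e1 repression, against 44.3% of all genes tested. With ARV-771 20 and 20 were called, against 75.2% of all genes. In e1 repression 2 mitosis genes were called with library size only or no filter, against 20.3% and 13.2% of all genes. With ARV-771 mitosis calls were 10 with library size only, 14 with limma on log2(TPM + 1) and 22 with mitochondrial scaling. In the same fits 47.8%, 48.9% and 71.1% of all genes were called. In e1 activation 1 replication gene was called with DESeq2 or all libraries in one fit, and 1 mitosis gene with these or no filter. Over all genes 2.69% were called with DESeq2, 4.76% with all libraries in one fit and 4.6% with no filter. Calls in the knockout were 15 to 16 and 19 to 21, and in the difference 13 to 16 and 14 to 19, when a library was left out. The replicate block, for guide numbers and culture letters that share only a number, gave 0 and 1 calls in e1 repression and 11 and 3 with ARV-771, and changed no call count. No paired analysis was possible for SOX2 knockout and e1 activation because the groups share fewer than 2 numbers.

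The share of higher calls over all genes went from 40.0% with TMM to 5.90% with library size only, 1.89% with limma and 0.823% with mitochondrial scaling for ARV-771, and from 54.7% to 36.2% and 38.9% with library size only and limma for the knockout. All genes called in e1 activation were 28 with edgeR, 400 with DESeq2, 1116 with no filter and 784 with all libraries in one fit.

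Signs turned as follows; the cause was not tested. In the knockout, leaving out 1 library gave CDKN1B -0.05 to 0.06, CCND3 -0.08 to 0.06 and CCND2 -0.15 to 0.01, and CCND3 was at 0.01 with RLE factors and 0.00 with DESeq2. With ARV-771 mitochondrial scaling gave CDC45 -0.29, MCM5 -0.41, POLA1 -0.23, GINS2 -0.46, MCM7 -0.44, RRM1 -0.25 and TYMS -0.09, and limma gave MCM5 -0.17, GINS2 -0.10 and MCM7 -0.09. In e1 activation limma gave MCM5 0.11 and RRM1 0.17. Leaving out a library there gave E2F2 -0.18 to 0.00, CDC6 -0.15 to 0.01, MCM5 -0.10 to 0.01, POLA1 -0.18 to 0.06 and CDKN1B -0.14 to 0.19. In the difference, leaving out a library gave CCNE1 0.00 to 0.23 and CCND2 -0.13 to 0.02, and CCND2 was at 0.08 with library size only.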
